A study of Mus musculus with 8 samples.

Results

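Levels of 10 BCL2 family genes were followed in mouse B-lymphoid cells lacking c-jun, which encodes a subunit of AP-1, and in cells that kept it: the survival genes Bcl2, Bcl2l1 and Mcl1, the BH3-only death genes Bcl2l11, Bmf, Bbc3, Pmaip1 and Bid, and the effector genes Bax and Bak1. They were chosen by name, and each was read from the brightest Affymetrix MoGene 1.0 ST probe set (a group of probes summarised as 1 value) that carried its symbol alone. Of the 10, 9 were measured this way among 19937 genes, each by 1 probe set. Bax was not analysed here, as no such probe set was found for it in the annotation used. The measured genes lie on chromosomes 1 (Bcl2), 2 (Bcl2l1, Bcl2l11 and Bmf), 3 (Mcl1), 6 (Bid), 7 (Bbc3), 17 (Bak1) and 18 (Pmaip1). The 8 samples, with 1 array each, were 4 labelled as c-jun knock out and 4 as wild type, all B-lymphoid cells with the strain label SW129/C57BL/6J; neither treatment, age nor the way the gene was deleted is given in the sources used here. The series concerns lymphoid leukemia caused by the kinase BCR-ABL, but the labels do not state that these cells carried it, nor whether samples of a genotype came from separate animals or cultures, so the p-values below rest on sample-to-sample spread that may be technical. Replicates 1 and 2 of each genotype have titles beginning with RO and replicates 3 and 4 have D or F titles, which the labels do not call batches.

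Proteins of the BCL2 family decide whether the outer mitochondrial membrane is breached during apoptosis. BAX and BAK open the membrane, BCL-2, BCL-XL and MCL-1 hold them in check, and BH3-only proteins such as BIM and PUMA bind the survival proteins or the effectors and tip the balance towards death. Developing B cells and some malignant B cells depend on MCL-1 or BCL-XL, and kinases such as BCR-ABL are known to keep BIM low and BCL-XL high in hematopoietic cells.

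Sequences upstream of the members were examined for motifs of factors known to act on this family, using RefSeq windows of the 250 bases before each annotated start site (GRCm38.p6). Of the 10 members, all but Pmaip1 were matched, with 16 windows. Some members had several windows, and 2 windows of Bbc3 share bases, so the 16 are not separate sequences. The AP-1 motif (TGACTCA or TGAGTCA, each the reverse complement of the other) was in 0 of the 16 windows and in 4.46% of 32851 windows of all genes. The CRE motif bound by JUN and ATF dimers (TGACGTCA, which reads alike on both strands) was also in 0 of 16, against 1.55% of all windows, and the STAT motif (TTCNNNGAA, also alike on both strands) in 0 of 16, against 7.02%. The forkhead motif of FOXO factors (TGTTTAC on either strand) was in 2 of 16, against 3.17%. With so few windows and shares this low, counts of 0 or 2 cannot set the members apart from all genes. The searched motifs do not overlap one another in these windows, and a match or its lack describes these letters and not binding. Both windows with a forkhead match are shown with the match in capitals; it begins 227 bases before the start site in Bcl2l11 and 167 bases before it in Bbc3.
Bcl2l11 (chr2:128125788-128126037, plus strand): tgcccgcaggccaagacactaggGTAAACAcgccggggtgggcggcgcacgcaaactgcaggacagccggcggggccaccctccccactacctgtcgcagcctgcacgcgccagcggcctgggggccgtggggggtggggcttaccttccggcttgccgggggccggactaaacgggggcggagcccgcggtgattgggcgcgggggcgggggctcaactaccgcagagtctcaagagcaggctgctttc
Bbc3 (chr7:16310011-16310260, plus strand): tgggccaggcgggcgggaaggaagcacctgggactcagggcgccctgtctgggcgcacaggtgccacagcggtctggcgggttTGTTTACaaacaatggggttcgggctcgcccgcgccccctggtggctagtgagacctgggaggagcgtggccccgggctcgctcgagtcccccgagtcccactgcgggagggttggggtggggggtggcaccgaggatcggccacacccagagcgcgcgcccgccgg
Mcl1 is shown as the member whose genotypes did not overlap in the deposited values, and Bmf as the member with the lowest limma p, although neither passed. Capitals mark CpG dinucleotides, the sites of DNA methylation, the subject of the series. The Mcl1 window held 26 of them. The Bmf window, the farthest upstream of its 3, held 8, and the other Bmf windows held 5 and 3. The median was 16 over the member windows (range 0 to 37) and 6 over the windows of all genes. Methylation itself was not measured in the data analysed here.
Mcl1 (chr3:95658471-95658720, plus strand): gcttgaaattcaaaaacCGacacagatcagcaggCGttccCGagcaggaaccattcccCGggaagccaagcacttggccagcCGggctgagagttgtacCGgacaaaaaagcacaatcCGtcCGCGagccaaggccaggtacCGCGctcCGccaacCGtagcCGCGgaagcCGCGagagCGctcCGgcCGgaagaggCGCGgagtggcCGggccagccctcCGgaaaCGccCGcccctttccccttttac
Bmf (chr2:118549687-118549936, minus strand): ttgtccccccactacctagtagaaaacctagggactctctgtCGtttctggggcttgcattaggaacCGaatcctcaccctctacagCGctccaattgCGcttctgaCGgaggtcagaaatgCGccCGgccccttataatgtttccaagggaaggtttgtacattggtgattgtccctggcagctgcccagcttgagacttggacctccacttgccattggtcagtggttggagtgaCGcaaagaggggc

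The deposited values were log2 signals whose array medians over genes lay between 7.19 and 7.47 in knockout samples and between 7.24 and 7.72 in wild-type samples. Wild-type replicates 1 and 3 had the highest medians (7.72 each). The median gene differed by -0.11 on the log2 scale between knockout and wild type, and by 0.06 after each array was centred on its median. Jun was at 6.99, 6.46, 7.02 and 6.97 in knockout replicates 1 to 4, against 8.82, 8.84, 10.55 and 8.77 in wild-type replicates 1 to 4, a separation in the direction of the labels (log2 difference -2.38, SE 0.32, limma adjusted p = 0.106). Of the markers of B-lymphoid cells, 14 of 15 were measured. Cd79a, a subunit of the B-cell receptor, was between 13.18 and 13.30 in knockout and between 13.02 and 13.20 in wild-type samples, and was among the steadiest genes. Of the 14, 12 were higher on average in knockout samples and Igll1 and Ptprc were lower (median 0.11, and 0.28 with arrays centred), and none passed. Of all genes, 72% were lower on average in knockout samples. Rag1, Rag2, Dntt and Il7r, genes of early B-cell stages, varied most, with SDs over the 8 arrays of 1.52, 1.43, 1.44 and 1.45. Il7r was between 8.96 and 12.44 in knockout and between 8.92 and 11.64 in wild-type samples. The mean log2 signal of 9 T and NK cell markers was between 6.35 and 6.86 in knockout and between 6.39 and 7.38 in wild-type samples, that of 9 myeloid markers between 6.73 and 6.87 in knockout and between 6.49 and 7.19 in wild-type samples. For 5 plasma-cell markers it was between 8.32 and 8.503 in knockout and between 8.46 and 9.34 in wild-type samples. All 9 T and NK markers, 7 of 9 myeloid, 4 of 5 plasma-cell, 4 of 4 erythroid and megakaryocyte and 5 of 5 stromal markers were lower on average in knockout samples, where 72% of all genes were. The median differences of these 5 lists lay between -0.29 and -0.16, and between -0.12 and 0.02 with arrays centred; the part of any marker list in the results below was not tested.

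The comparison asked whether loss of c-JUN went with another level of survival or death genes. None of the 9 measured members passed: in a limma fit over all genes with genotype and title scheme as terms, 0 of 9 had an adjusted p below 0.05, where 0.00502% of all genes did. At an unadjusted p below 0.05 there were 2 of 9, Bmf and Pmaip1, where 2.25% of all genes were. Both were lower in knockout samples, as were 1.72% of all genes at that p. On average 7 of 9 members were lower in knockout samples, where 72% of all genes were; with arrays centred on their medians 5 of 9 were, and after quantile normalization 7 of 9. In bulk samples fewer cells of a kind and less RNA per cell cannot be told apart. The plot of single samples shows how far the genotypes overlapped for each member.

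**Figure D1:**
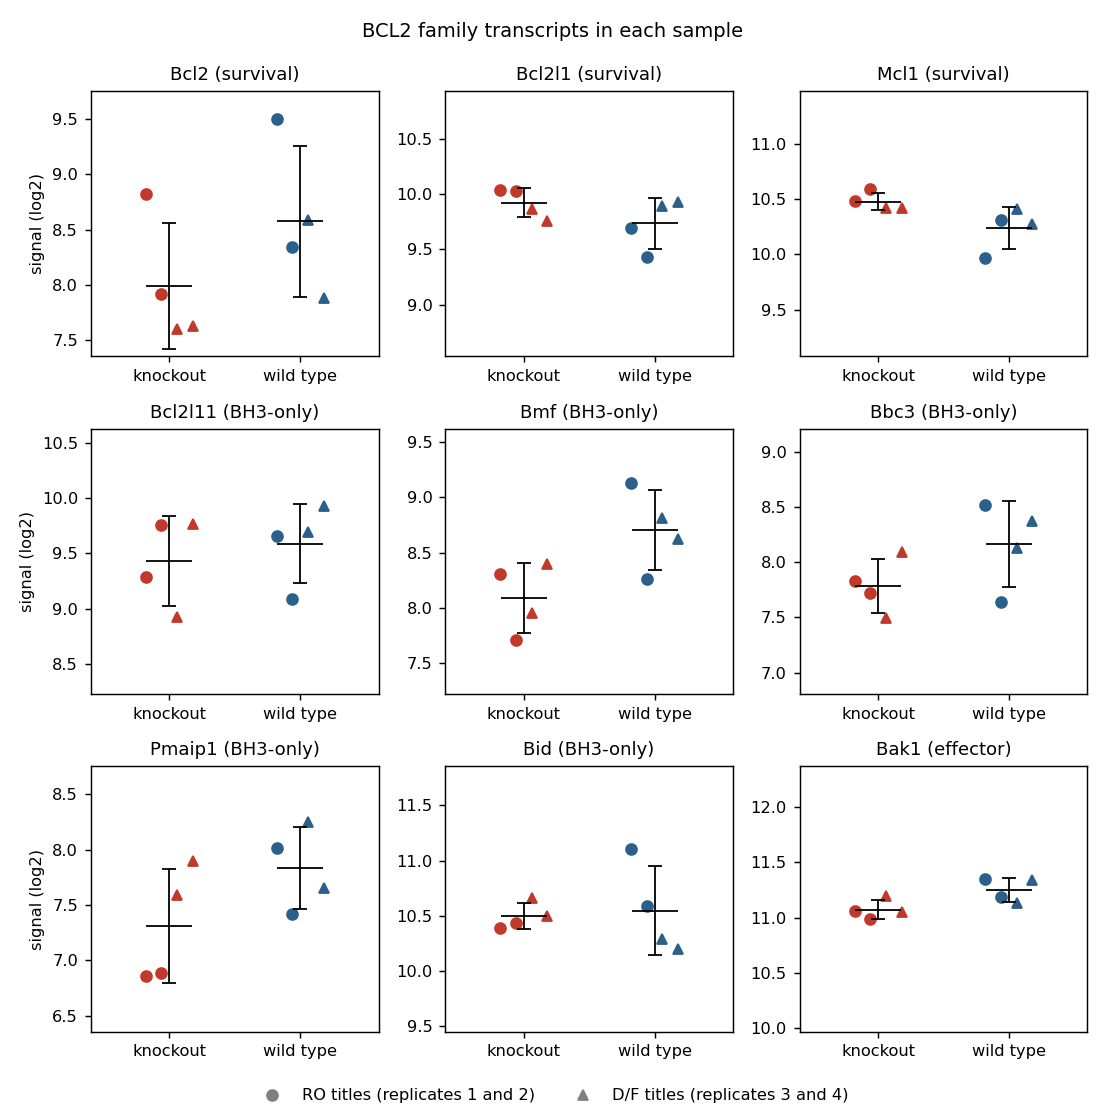
Log2 signal of the 9 measured BCL2 family members in knockout samples (left, red) and wild-type samples (right, blue), every panel spanning the same range of log2 units; circles are samples with RO titles, triangles samples with D/F titles, and bars give the mean and SD of 4 samples. Mcl1 is the only panel in which the genotypes do not overlap, and Bmf has the lowest limma p of the 9.

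Among the survival genes, Mcl1, which encodes a short-lived protein needed for B-cell development, was at 10.48, 10.59, 10.42 and 10.42 in knockout replicates 1 to 4, against 9.97, 10.31, 10.41 and 10.27 in wild-type replicates 1 to 4. Every knockout sample lay above every wild-type sample, by 0.01 at the narrowest point, and wild-type replicate 1 was the lowest. Such a separation with knockout higher was found for 0.266% of all genes. The means were 10.48 ± 0.08 in knockout and 10.24 ± 0.19 in wild-type samples (SD, n = 4 each), a 1.18-fold higher signal in knockout samples (log2 difference 0.24, SE 0.14) that did not pass (limma adjusted p = 0.878). By exact permutation of the 70 assignments of 4 and 4 arrays (2-sided) p was 0.0286, as low as it can go. The groups overlapped, and the exact p was 0.114, once arrays were centred on their medians and likewise after quantile normalization. Without wild-type replicate 1 the difference was 0.14, and with arrays centred it was 0.41.

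Bcl2l1 encodes BCL-XL and, by splicing, the shorter BCL-XS, which this single value does not tell apart. It was at 10.03, 10.03, 9.87 and 9.76 in knockout replicates 1 to 4, against 9.69, 9.43, 9.90 and 9.93 in wild-type replicates 1 to 4. Both knockout samples with RO titles lay above both wild-type ones, while both knockout samples with D/F titles lay below theirs. The log2 difference was 0.47 in RO samples, -0.10 in D/F samples and 0.19 (SE 0.16, limma adjusted p = 0.878) over all samples. The overall difference was 0.08 without wild-type replicate 2 and 0.36 with arrays centred. The interaction of genotype and title scheme, which tests whether the differences themselves differed, was -0.57 (SE 0.28, unadjusted p = 0.0700, limma adjusted p = 0.716).

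Bcl2, the survival gene first found at a translocation in B-cell lymphoma, went the other way. It was at 8.82, 7.92, 7.61 and 7.63 in knockout replicates 1 to 4, against 9.50, 8.34, 8.59 and 7.88 in wild-type replicates 1 to 4. Replicate 1 was the highest of each genotype and the groups overlapped. The difference was -0.59 on the log2 scale (1.501-fold lower in knockout samples, SE 0.28, limma adjusted p = 0.878), close in RO (-0.56) and D/F samples (-0.62). Leaving out wild-type replicate 1 gave -0.36, and leaving out replicate 3 of that genotype as well gave -0.12. Bcl2 was also the member that varied most: its SD over the 8 arrays, 0.66, was above that of 96.6% of all genes, against 19.0% for Mcl1 and 24.0% for Bcl2l1. Between title schemes, D/F minus RO, it was at -0.72 (SE 0.28, unadjusted p = 0.0253, limma adjusted p = 0.9999).

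All 5 BH3-only genes were lower on average in knockout samples, where 72% of all genes were, and 3 of them (Bmf, Bbc3 and Pmaip1) were lower in both title schemes, as were 32.6% of all genes. None passed, and Bcl2l11 and Bid were higher in knockout samples once arrays were centred. The lowest limma p of all members belonged to Bmf, whose protein is held at the cytoskeleton and released on stress. Bmf was at 8.31, 7.71, 7.96 and 8.40 in knockout replicates 1 to 4, against 9.13, 8.26, 8.81 and 8.63 in wild-type replicates 1 to 4. Knockout replicates 1 and 4 lay above wild-type replicate 2, and otherwise the genotypes were apart. The means were 8.09 ± 0.32 in knockout and 8.71 ± 0.36 in wild-type samples (SD, n = 4 each), a 1.53-fold lower signal in knockout samples (log2 difference -0.61, SE 0.22, unadjusted limma p = 0.0184, limma adjusted p = 0.878, exact permutation p = 0.0857). RO samples differed by -0.68 and D/F samples by -0.54, and leaving out wild-type replicates 1 and 3 gave -0.35. Bmf ranked 120 among 19937 genes by p.

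Pmaip1 encodes NOXA, a BH3-only protein that binds chiefly MCL-1. It was at 6.86, 6.89, 7.59 and 7.90 in knockout replicates 1 to 4, against 8.01, 7.42, 8.25 and 7.66 in wild-type replicates 1 to 4. The 2 knockout samples with RO titles were the lowest of all, and the knockout samples with D/F titles lay within the wild-type range. In 3 of the 8 arrays the signal was below the median gene of the array, so the size of the difference is uncertain. It was -0.52 (SE 0.22, unadjusted limma p = 0.0356, limma adjusted p = 0.878, exact permutation p = 0.171), with -0.84 in RO and -0.21 in D/F samples. Leaving out wild-type replicate 1 gave -0.34, and leaving out wild-type replicate 3 as well gave -0.23. Low signals were shifted as a whole on these arrays: the 500 genes of nearest mean signal had a median difference of -0.17.

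Bbc3, which encodes the p53-induced killer PUMA, was at 7.83, 7.72, 7.496 and 8.09 in knockout replicates 1 to 4, against 8.52, 7.64, 8.12 and 8.37 in wild-type replicates 1 to 4. Wild-type replicate 2 lay among the knockout samples. The difference of -0.38 (SE 0.22, limma adjusted p = 0.878) compares with -0.13 for the 500 genes of nearest mean signal. It was -0.22 without wild-type replicate 1, -0.24 without knockout replicate 3, -0.57 without wild-type replicate 2, -0.21 with arrays centred and -0.15 with array weights. As for Bmf, replicate 1 was the highest and replicate 2 the lowest of the wild-type samples.

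Bcl2l11 encodes BIM, the BH3-only protein that removes autoreactive B cells. It was at 9.28, 9.76, 8.93 and 9.77 in knockout replicates 1 to 4, against 9.66, 9.09, 9.69 and 9.93 in wild-type replicates 1 to 4. The groups overlapped widely, and the difference was -0.15 (SE 0.23, limma adjusted p = 0.880), with 0.15 in RO and -0.46 in D/F samples. It turned to 0.02 when arrays were centred on their medians and to 0.07 without knockout replicate 3, so no direction can be given.

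Bid, whose protein is cut by caspase-8 and so links death receptors to mitochondria, was at 10.39, 10.44, 10.66 and 10.50 in knockout replicates 1 to 4, against 11.10, 10.59, 10.29 and 10.20 in wild-type replicates 1 to 4. Both knockout samples with RO titles lay below both wild-type ones, and both with D/F titles lay above theirs. The differences were -0.43 and 0.33, and over all samples -0.05 (SE 0.18, limma adjusted p = 0.939). The interaction was 0.76 (SE 0.30, unadjusted p = 0.0292), the only one of 9 below 0.05 unadjusted, where 5.38% of all genes were, and it did not pass (limma adjusted p = 0.716). Bcl2l1 and Bid were thus the 2 members of 9 with knockout samples all on one side in RO and all on the other in D/F samples, where 5.8% of all genes were. With arrays centred on their medians the overall difference of Bid was 0.12.

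Bak1, the measured effector, was at 11.06, 10.99, 11.19 and 11.05 in knockout replicates 1 to 4, against 11.35, 11.19, 11.13 and 11.34 in wild-type replicates 1 to 4. Knockout replicate 3 lay above wild-type replicates 2 and 3, and the other knockout samples below all wild-type ones. Its spread was the smallest of the members (SD over 8 arrays 0.13), and the difference was -0.18 (SE 0.13, limma adjusted p = 0.878). It all but vanished, at -0.01, with arrays centred on their medians, whereas it was -0.22 after quantile normalization.

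**Figure D2:**
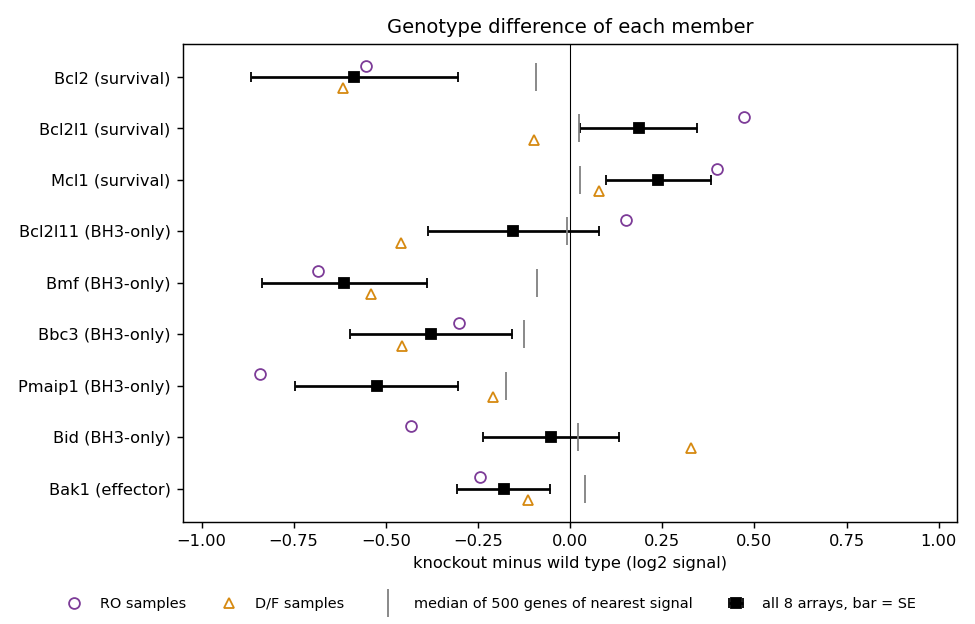
Knockout minus wild-type difference in log2 signal for each member, with squares and SE bars for the fit of all 8 arrays, circles for RO samples, triangles for D/F samples and grey ticks for the median of the 500 genes of nearest mean signal. Bmf, Bcl2 and Pmaip1 lie farthest below 0 (-0.61, -0.59 and -0.52), Mcl1 and Bcl2l1 lie above it (0.24 and 0.19), and Bcl2l1, Bcl2l11 and Bid have opposite signs in RO and D/F samples.

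Across the members, 6 of 9 had the same sign in RO and D/F samples and 3 had opposite signs, where 55.9% of all genes had. None of the 9 passed the interaction (0.0301% of all genes did) or the difference between title schemes (0.0201% did). At an unadjusted p below 0.05 the schemes differed for Bcl2 and for Pmaip1, and Pmaip1 was higher in D/F samples (0.55, SE 0.22, unadjusted p = 0.0284, limma adjusted p = 0.9999), where 3.12% of all genes did. Wild-type replicate 1 had the highest signal of all 8 arrays for 5 of 9 members (Bcl2, Bmf, Bbc3, Bid and Bak1) and the lowest for Mcl1. That array also had the highest median, 7.72, together with wild-type replicate 3. The share of all genes highest in it was not computed, so the count cannot be read as a trait of the members.

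The balance of the classes was then described sample by sample. Since signals of different probe sets cannot be compared, each member was set against its own mean over the 8 arrays, and these deviations were averaged within a class; no p is given, since the members were picked with results known. The survival score was 0.29, 0.02, -0.19 and -0.22 in knockout replicates 1 to 4, against 0.23, -0.13, 0.14 and -0.13 in wild-type replicates 1 to 4. It showed no separation by genotype (-0.03 ± 0.24 in knockout and 0.03 ± 0.19 in wild-type samples, SD, n = 4 each); on average Bcl2 was lower and Mcl1 and Bcl2l1 were higher in knockout samples. The BH3-only score was -0.26, -0.29, -0.27 and 0.13 in knockout replicates 1 to 4, against 0.49, -0.20, 0.24 and 0.16 in wild-type replicates 1 to 4. As deposited, knockout replicates 1 to 3 were the lowest 3 samples. Knockout replicate 4 was near wild-type replicate 4, and wild-type replicate 2 was near the other knockout samples. In wild-type replicate 1 all 5 BH3-only genes were above their means, and in knockout replicate 1 none was. Scores of 1 class carry array-wide shifts, and the array median was 7.72 in wild-type replicate 1 and 7.29 in knockout replicate 1. The order of samples and the genotype difference in such a score thus depend on array scaling. Survival minus BH3-only, given below, is the same with arrays centred as without, since a shift of a whole array cancels in it. That sameness is therefore no check of the balance. After quantile normalization its genotype difference was 0.22, against 0.29 as deposited.

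Survival minus BH3-only, the balance itself, was 0.55, 0.31, 0.08 and -0.36 in knockout replicates 1 to 4, against -0.26, 0.07, -0.10 and -0.29 in wild-type replicates 1 to 4. Knockout samples thus held both the highest value and the lowest. The means were 0.15 ± 0.39 in knockout and -0.15 ± 0.16 in wild-type samples (SD, n = 4 each), and their difference of 0.29 was about as large as the pooled SD of 0.30. It was 0.53 in RO samples and 0.05 in D/F samples, 0.46 without knockout replicate 4 and 0.16 without knockout replicate 1. Taking the median over each class in place of the mean gave 0.52. Survival minus effector differed by 0.13 (0.35 in RO, -0.10 in D/F samples) and effector minus BH3-only by 0.16, each below the pooled SD of 0.25 and 0.24; both rest on Bak1 as the 1 effector measured. With 1 array left out, survival minus effector was lowest at 0.0169 (knockout replicate 1 omitted), was 0.0446 with wild-type replicate 4 and 0.0830 with knockout replicate 2 omitted, and reached 0.20 with wild-type replicate 3 and 0.22 with knockout replicate 3 omitted. Class medians gave 0.33. Effector minus BH3-only was 0.0905 with knockout replicate 3, 0.0916 with wild-type replicate 1 and 0.10 with wild-type replicate 3 omitted, and 0.27 with either knockout replicate 4 or wild-type replicate 2 omitted. Quantile normalization brought it to 0.0665.

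**Figure D3:**
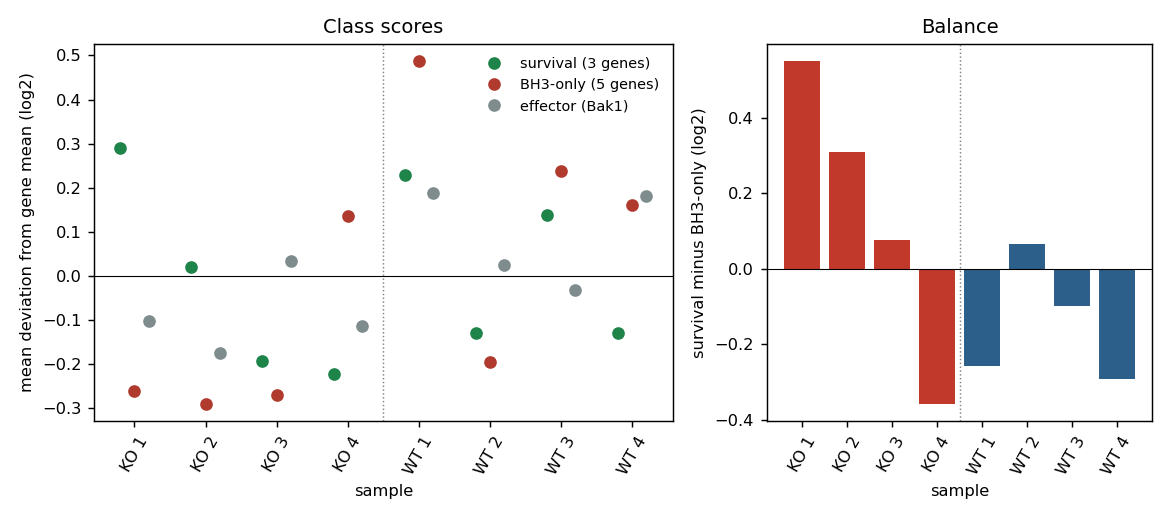
Left, class scores per sample, each the mean over a class of log2 signal minus the gene's mean over 8 arrays (survival 3 genes, BH3-only 5 genes, effector Bak1 alone); right, survival minus BH3-only score, knockout samples (KO) left of wild-type samples (WT). The balance runs from 0.55 in knockout replicate 1 to -0.36 in knockout replicate 4, and the wild-type samples lie between -0.29 and 0.07.

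Covariation among the 9 members was examined over the 8 arrays in 36 pairs. Bmf and Bbc3 went together, with Pearson r = 0.862 (exact permutation p = 0.00640, adjusted over 36 pairs 0.115) and Spearman rho = 0.905 (exact permutation p = 0.00456, adjusted 0.0821). Without the 2 arrays farthest from the median of Bmf, r was 0.858, and with arrays centred on their medians it was 0.771. Only Mcl1 and Bak1 passed the adjustment by Pearson's r, and in opposition, with r = -0.863 (exact permutation p = 0.000819, adjusted 0.0295; -0.836 without the 2 arrays farthest from the median of Mcl1) and rho = -0.905 (exact permutation p = 0.00456, adjusted 0.0821). That relation depended on array scaling: r was 0.461 and rho 0.762 with arrays centred on their medians (exact permutation p = 0.236 and 0.0368, adjusted 0.664 and 0.441), and r was -0.887 after quantile normalization (exact permutation p = 0.00174, adjusted 0.0625). With arrays centred, Bcl2l1 and Mcl1 had r = 0.851 (exact permutation p = 0.00186, adjusted 0.0670) and rho = 0.976 (exact permutation p = 0.000397, adjusted 0.0143), the only pair to pass by rank under any of the 3 scalings. Their r was 0.703 without the 2 arrays farthest from the median of Bcl2l1, and as deposited it was 0.536 with rho = 0.595 (exact permutation p = 0.176 and 0.132, adjusted 0.453 and 0.476). After quantile normalization r was 0.414 and rho 0.524 (exact permutation p = 0.297 and 0.197, adjusted 0.567 and 0.701). Centring takes the same array medians from both genes, whose SDs over the 8 arrays were only 0.20 and 0.19. It can thus make them vary together by itself, which was not tested. Correlations within a genotype or a title scheme, of 4 arrays each, were not computed. Among 9968 genes of at least median signal, those with the pattern most like that of Bmf over the 8 centred arrays were Ipo4 (r = 0.927), Mc1r (0.927) and Dennd11 (0.919), with log2 differences of -0.61 (SE 0.24), -1.30 (SE 0.37) and -0.77 (SE 0.22) between knockout and wild type, and 0 of these 3 passed. With 8 arrays and so many genes searched, values of r this high can arise by chance. Bmf was taken for its lowest p, so genes picked for likeness to it tend to be lower in knockout samples too.

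Genes that work beside the members were compared through 4 lists with 68 of 75 genes measured. Of these, 0 of 68 passed the limma fit over all genes, where 0.00502% of all genes did. All 4 list medians were below 0 as deposited and between 0.09 and 0.14 with arrays centred, so the counts below follow the array scaling. They stand beside 72% of all genes that were lower on average in knockout samples. Of the other BCL2 relatives, 9 of 14 were lower on average and 5 higher (median -0.08, against -0.11 for all genes and -0.18 for the 9 members). Bok, an effector-like relative, was at 0.39 (SE 0.26), the mitophagy receptor gene Bnip3 at 0.29 (SE 0.19), and the BH3-only genes Hrk and Bad at -0.24 (SE 0.17) and -0.22 (SE 0.16). Bcl2a1a, Bcl2a1b and Bcl2a1d, near-identical copies, were named only on probe sets with several symbols and were not used here.

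The list of mitochondrial apoptosis and its later steps held, among others, caspases, their activators, inhibitors and targets, nucleases and mitochondrial channels. Of its 20 measured genes, 11 were lower and 9 higher (median -0.03). Vdac3, a channel of the outer mitochondrial membrane, was at 0.31 (SE 0.14, unadjusted p = 0.0515, limma adjusted p = 0.878) and the caspase inhibitor Birc2 at 0.20 (SE 0.15), while Casp2 and Casp6 were at -0.20 (SE 0.13) and -0.34 (SE 0.20). Vdac3 was at 11.63, 11.67, 11.48 and 11.80 in knockout replicates 1 to 4, against 11.04, 11.48, 11.44 and 11.38 in wild-type replicates 1 to 4. Knockout replicate 3 lay just below wild-type replicate 2, and the other knockout samples lay above all wild-type ones.

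In the death receptor arm 7 of 9 genes were lower (median -0.07). Tnfrsf10b, the receptor of the death ligand TRAIL, was at 6.12, 6.43, 6.45 and 6.50 in knockout replicates 1 to 4, against 6.86, 6.47, 7.66 and 7.98 in wild-type replicates 1 to 4. The wild-type samples with D/F titles stood out, and 7 of 8 signals were below the median gene of their array. Its difference of -0.87 (SE 0.23) ranked 21 by p among all genes and did not pass (unadjusted limma p = 0.00262, limma adjusted p = 0.878, exact permutation p = 0.0571). Tradd, Tnfrsf1a and Fadd were at -0.24 (SE 0.16), -0.22 (SE 0.22) and -0.12 (SE 0.16).

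Of 25 regulators of the family, 18 were lower and 7 higher (median -0.08). Cdkn2a, a gene with more than 1 product, of which ARF stabilises p53, was at 7.93, 7.83, 8.38 and 7.65 in knockout replicates 1 to 4, against 10.97, 8.13, 9.50 and 9.49 in wild-type replicates 1 to 4. This single value does not tell its products apart. Knockout replicate 3 lay above wild-type replicate 2, and otherwise the genotypes were apart. It had the smallest p of the list, with a difference of -1.58 (SE 0.46, unadjusted limma p = 0.00499, limma adjusted p = 0.878, exact permutation p = 0.0571). Stat5a, a factor downstream of BCR-ABL, was at -0.28 (SE 0.17), the survival kinase gene Pim2 at -0.27 (SE 0.17) and the transcription factor gene Cebpb at -0.32 (SE 0.21).

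**Figure D4:**
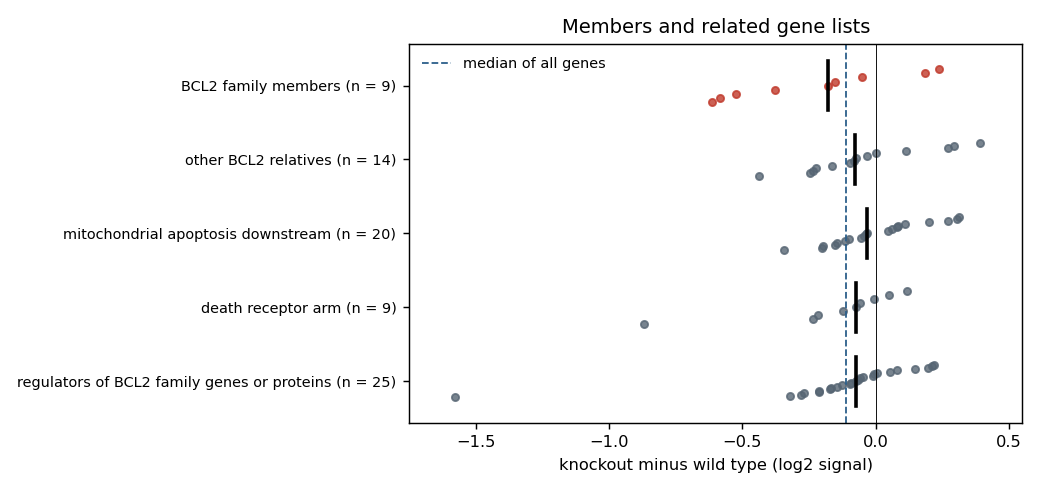
Knockout minus wild-type differences in log2 signal for the 9 members (red) and for the measured genes of 4 related lists (grey), with a black line at each list's median and a dashed line at the median of all genes (-0.11). List medians lie between -0.18 for the members and -0.03 for the list of mitochondrial apoptosis and its later steps. Cdkn2a (-1.58) and Tnfrsf10b (-0.87) lie farthest to the left.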

How the data were processed

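For each sample the deposited file holds a log2 signal at 34760 probe sets. The submitters' processing notes name MAS5 for these values, and no version or setting is given in the sources used here. This array type has no mismatch probes, which MAS5 signals use, so how the values were made is not clear. From the values, each array's mean on the linear scale with 2% trimmed per end is 500, so array medians still differ. RNA had been extracted with Trizol, and 200 ng per sample labelled with biotin, per the labels' protocols. The number of arrays limits the precision, and no detection calls were used.

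Symbols came from the platform annotation: 21640 had 1 symbol, 1321 several and 11799 none. The brightest single-symbol probe set stood for each of 19937 genes. limma 3.58.1 in R 4.3.3 (lmFit; eBayes with a mean-variance trend; genotype and title scheme as terms, 5 residual degrees of freedom) was fitted over all genes, with Benjamini-Hochberg adjustment at 0.05; it was tested on simulated data. Replicates were numbered in order of deposit. The members and lists were chosen with earlier results of these data known. Text names all members, up to 4 genes of smallest p per related list, Jun, and the 3 genes most like the member of smallest p. Alternatives were another scaling, filter, probe-set summary, variance model, array weights, the title scheme left out, as a random block or 1 scheme alone, and each array left out. Pseudocounts had been planned for linear values only and were not needed.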

Additional observations from a re-analysis of the deposited data

Results flagged for a closer look

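In the BH3-only score of the knockout samples, knockout replicate 4 stood apart from the others: the gap to the next sample was 0.931 of the range, beyond Dixon's limit for 4 values, which chance passes in about 5% of groups. The score was 0.13 there and -0.26, -0.29 and -0.27 in knockout replicates 1 to 3. It was made from deposited values and so carries array-wide shifts. Array medians were 7.29, 7.19, 7.47 and 7.47 in knockout replicates 1 to 4. The knockout samples with RO titles had lower medians than knockout replicate 4, so centring brings their scores closer to its score. Knockout replicate 3 had nearly the same median as knockout replicate 4 and stays about as far from it. With arrays centred the gap to the next sample is therefore a smaller part of the range, within Dixon's limit. The flag thus holds for the deposited values and not with arrays centred. The rule was run over the members and class scores, so a flag can arise by chance.

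For Bcl2l1 and Bid every knockout sample with an RO title lay on one side of the wild-type samples of that scheme and every knockout sample with a D/F title on the other, as was so for 5.8% of all genes. The differences in D/F minus those in RO samples were -0.57 (SE 0.28) for Bcl2l1 and 0.76 (SE 0.30) for Bid, and limma's test of the interaction did not pass for either (adjusted p = 0.716).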

How the results depend on the processing

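In the limma fits, 0 of 9 members passed for genotype under all 20 alternatives run, with adjusted p-values of 0.175 or more. Bcl2, Mcl1, Bmf, Bbc3, Pmaip1 and Bak1 kept their sign in all 20. Mcl1 ran from 0.08 to 0.41, Bmf from -0.77 to -0.35 and Bak1 from -0.25 to -0.01. Bcl2l1 turned to -0.10 in D/F samples alone. Bcl2l11 became 0.0172 with array medians aligned, 0.0385 with array weights and 0.15 in RO samples alone, and ran from -0.33 to 0.0747 with 1 array left out. Bid turned to 0.12 with arrays centred, 0.0159 with array weights, 0.33 in D/F samples alone and 0.10 without wild-type replicates 1 and 3 (an alternative added after seeing the data), and ran from -0.16 to 0.13 with 1 array left out; 0.03 and 0.01 were the values without knockout replicates 1 and 2. The exact p of Mcl1 was 0.114 after centring and after quantile normalization. Survival minus effector turned to -0.10 in D/F samples alone, and effector minus BH3-only to -0.0379 without wild-type replicates 1 and 3. Of 36 member pairs, 1 passed by Pearson's r as deposited (Mcl1 and Bak1) and 0 with arrays centred. By Spearman's rho 0 passed as deposited and 1 with arrays centred (Bcl2l1 and Mcl1). Neither pair passed after quantile normalization. No paired analysis was possible because the labels give no replicate numbers. The causes were not tested.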
